A study of Mus musculus with 18 samples.

Results

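The p53 target and caspase pathway genes described here are 37 mouse genes, given by name as a list that combines p53, its main antagonist, known p53 targets and the proteins that start, brake or carry out caspase-driven death. Their symbols were matched to the Ensembl identifiers of 3 deposited count tables, and 37 of 37 were found in every table, out of 52506 genes common to the tables and 53509 in any of them. The RNA came from 18 libraries of wild type mouse double negative T cells (DNT cells), T cells without CD4 and CD8, converted from CD4+ T cells of spleen and lymph node. Every library, the controls included, had been stimulated with antibodies to CD3 and CD28. The first set held 3 libraries without ligand (WT) and 3 given ATPgs, an ATP analogue that resists hydrolysis, at 400 µM for 6 h (WTATPgs). The second held 3 libraries without ligand (DNT) and 3 given adenosine at 400 µM for 6 h (ADO). The last held cells exposed to 250 nM of an inhibitor of the adenosine receptor A2aR, in 3 libraries without adenosine (R) and 3 with 400 µM adenosine for 6 h (RA). The sets share no libraries, and the labels give no strain, age or number of animals. The study asks how extracellular ATP and adenosine act on these cells, and each ligand is compared with its own set's libraries without ligand.

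The transcription factor p53, encoded by Trp53, is held low by the ubiquitin ligase Mdm2, itself a p53 target, and when stabilised it drives genes for cell cycle arrest, DNA repair and death. Caspases are proteases that cleave one another in sequence. Cytochrome c released from mitochondria assembles Apaf1 into the platform that activates caspase 9, death receptors activate caspase 8 through the adaptor Fadd, and effector caspases then cut substrates such as the DNA repair enzyme Parp1. Some of these targets also respond to growth signals and to cyclic AMP, the second messenger that the A2a receptor raises, so a change in a target's RNA is not by itself a measure of p53 activity.

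Promoter windows of 250 bases before to 50 bases after the start site were held by RefSeq (build GRCm38.p6) for 31 of the 37 genes. The p53 consensus half-site, a decamer whose consensus is the same on both strands, matched in the windows of 9 of these 31 genes (Aen, Ccng1, Cdkn1a, Ei24, Gtse1, Mdm2, Polk, Sesn1 and Trp53), against 9.55% of 27025 genes in the RefSeq table and 8.36% of its 32851 windows. A pair of half-sites with 0 to 13 bases between them matched only in Cdkn1a among the 31, against 0.074% of the genes in the table. The cyclic AMP response element TGACGTCA, searched on both strands, matched in Btg2, Cycs and Plk2, against 2.03% of the genes. Its half-site TGACG, searched the same way, matched in 11 of the 31, against 23.0% of the genes. These were Btg2, Casp4, Cycs, Dffa, Diablo, Mdm2, Plk2, Plk3, Polk, Sesn1 and Xiap. These matches describe letters in a window and show neither binding nor function. Cdkn1a and Mdm2 are printed because they are the 2 genes called in opposite directions by the ligands, and Plk2 because it fell most with ATPgs and with adenosine among the 37. Btg2 and Cycs, which were called with ATPgs only, carry the same octamer as Plk2. Capitals mark the p53 half-sites in the first pair of sequences and the octamer in the others. Each sequence runs 5′ to 3′ on the strand of its gene.
Cdkn1a, chr17:29090876-29090967, + strand, half-sites 12 bases apart, the first starting 73 bases before the start site: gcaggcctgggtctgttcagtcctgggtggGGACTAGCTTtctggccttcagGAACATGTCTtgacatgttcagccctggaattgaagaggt
Mdm2, chr10:117710905-117710974, - strand, half-site starting 186 bases before the start site: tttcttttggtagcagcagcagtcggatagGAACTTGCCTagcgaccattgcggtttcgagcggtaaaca
Plk2, chr13:110394952-110395019, + strand, octamer starting 62 bases before the start site: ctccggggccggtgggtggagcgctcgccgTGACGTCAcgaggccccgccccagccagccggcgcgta
Btg2, chr1:134079284-134079351, - strand, octamer starting 166 bases before the start site: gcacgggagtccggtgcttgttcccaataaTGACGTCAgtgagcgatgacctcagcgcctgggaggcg
Cycs, chr6:50566701-50566768, - strand, octamer starting 169 bases before the start site: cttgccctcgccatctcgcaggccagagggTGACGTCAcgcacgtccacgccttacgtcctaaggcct

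Each library held between 20156082 and 24331577 counts. Whether the 3 libraries of a group were separate cultures or animals is not stated, so the p-values speak to variation among these libraries alone, which may be technical. T cell markers were present in every group (summed level 1152 to 2534 CPM, that is, counts relative to library size). Cd4 averaged 9.33 CPM in WT, 2.14 CPM in WTATPgs and 0.41 to 1.47 CPM in the other groups, and Cd8a 5.66 to 23.5 CPM by group. Some libraries stood apart. WTATPgs replicate 3 differed from the other WTATPgs libraries by 25.3 and 25.4 times the sampling variance of counts, against 1.65 to 2.39 for the other pairs within WT, WTATPgs, DNT and ADO, and the 3 R libraries differed from one another by 43.8 to 210 times. The summed level of 12 macrophage, monocyte and neutrophil markers was 191 and 196 CPM in WTATPgs replicates 1 and 2, 44.3 CPM in replicate 3 and 38.5 to 42.7 CPM in WT. Summed B cell markers stood at 19.7 and 20.5 CPM in WTATPgs replicates 1 and 2, 4.88 CPM in replicate 3 and 7.70 to 7.84 CPM in WT. Mitochondrially encoded RNA made up 2.99% to 5.21% of the counts in R and 3.49% to 3.73% in RA, against 1.54% to 2.03% in the other libraries. RNA of ribosomal protein genes made up 10.65% to 16.29% in R and 11.95% to 12.76% in RA, against 4.84% to 5.52% in the other libraries. Both shares were highest in R replicate 3. In bulk RNA, fewer cells of a type and less RNA per cell cannot be told apart.

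The 37 genes spanned a wide range of levels. Per kilobase of exon, on a scale set across all 18 libraries, Cdkn1a, the cyclin-dependent kinase inhibitor p21, was highest in DNT at 149 CPM per kb (SD 1.05, n = 3). It was followed by Ccng1, cyclin G1, at 96.6 CPM per kb (SD 1.63, n = 3) and by Cycs, cytochrome c, at 59.8 CPM per kb (SD 0.95, n = 3). Trp53 stood at 41.2 CPM per kb (SD 0.44, n = 3), next to Casp8, the death receptor caspase, at 41.0 CPM per kb (SD 0.98, n = 3), and these 2 neighbours did not differ beyond their spread. At the other end were Casp6, an effector caspase, at 2.20 CPM per kb (SD 0.08, n = 3), the adaptor Fadd at 1.61 (SD 0.18, n = 3), Casp9, the caspase of the Apaf1 platform, at 1.06 (SD 0.10, n = 3), and the receptor gene Eda2r at 0.11 (SD 0.05, n = 3). Cytochrome c thus stood near the top of the order and the caspase activated downstream of it near the bottom. In R, whose cells had the inhibitor and belong to another set, Ccng1 averaged 251 CPM per kb (SD 60.6, n = 3) and Cdkn1a 246 (SD 37.6, n = 3). Their order in R was within their spread. Pidd1, a death domain adaptor, averaged 1.93 in R (SD 0.47, n = 3) and 6.83 in DNT (SD 0.15, n = 3). The inhibitor and the set cannot be told apart in that contrast.

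**Figure D1:**
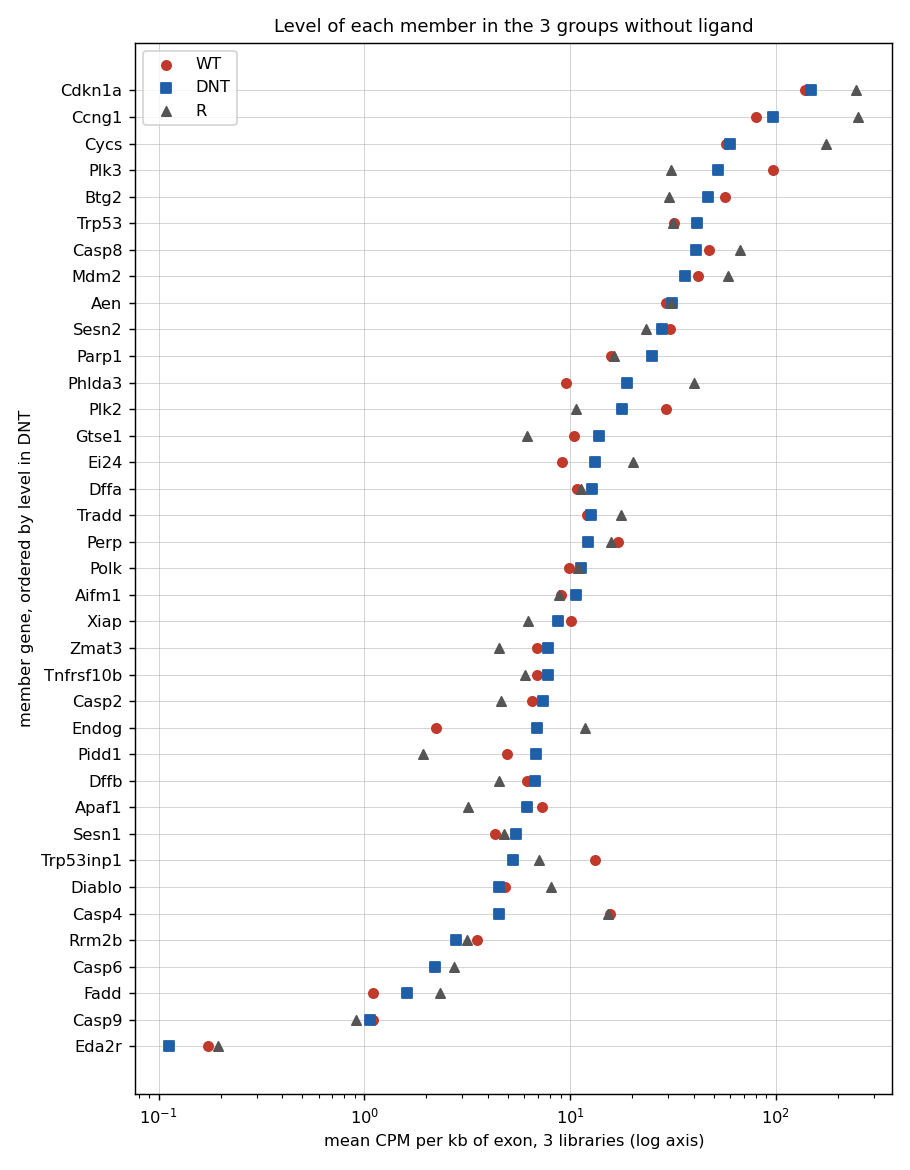
Mean level of each of the 37 genes in the groups without ligand (WT, DNT and R, 3 libraries each), in CPM per kilobase of exon on a log axis, with genes ordered by their level in DNT. Cdkn1a lies highest in WT and DNT. In R, Ccng1 and Cdkn1a lie highest, within their spread of each other. Eda2r lies lowest in each group, and R lies apart from WT and DNT for Ccng1, Cycs and Pidd1.

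Both ligands moved more than 20 of the 37 genes, in mixed directions. With ATPgs 13 genes rose and 9 fell (22 of 37, 59.5%), where "rose" and "fell" mean an adjusted p under 0.05 in edgeR's quasi-likelihood test over all genes. Across the 15124 genes tested 37.1% were called, 17.7% as rises and 19.4% as falls. With adenosine 16 rose and 7 fell (23 of 37, 62.2%), against 50.2% of 14512 genes, 25.5% as rises and 24.6% as falls. The members' median log2 fold change was 0.15 with ATPgs and 0.07 with adenosine, beside -6e-04 and 0.0022 over all genes tested. The 3 libraries with ligand lay wholly above or below the 3 without in 25 and 24 of the 37 genes, as they did in 51.3% and 55.7% of all genes tested. Scaling by library size alone gave 15 rises and 8 falls with ATPgs and 18 and 5 with adenosine, while over all genes it moved the split to 3226 rises and 2331 falls and to 4418 and 2850. Without WTATPgs replicate 3, 14 genes rose and 12 fell with ATPgs, when 53.8% of all genes were called.

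The genes sorted into a few patterns. Ccng1, Gtse1, Sesn1, Trp53inp1, Phlda3, Perp, Apaf1, Casp9 and Casp6 rose with either ligand (9 genes), and Plk2, Plk3, Aen and Tnfrsf10b fell with either (4 genes). Mdm2 and Cdkn1a rose with ATPgs and fell with adenosine, and none of the 37 did the reverse. How many of all genes showed each joint pattern was not counted, so these counts have no background beside them. Calls were common over all genes tested, at 37.1% with ATPgs and 50.2% with adenosine. Btg2 and Polk rose, and Casp4, Xiap, Dffa, Dffb and Cycs fell, with ATPgs only by call. Trp53, Pidd1, Ei24, Casp2, Tradd, Parp1 and Endog rose, and Sesn2 fell, with adenosine only by call. The 7 others (Zmat3, Rrm2b, Eda2r, Casp8, Fadd, Diablo and Aifm1) were called with neither in the main test. Without WTATPgs replicate 3, Eda2r was called as a rise and Casp8, Diablo and Aifm1 as falls with ATPgs. A gene called with 1 ligand alone is not thereby shown to differ between them, and the tests of that difference are given further on.

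**Figure D2:**
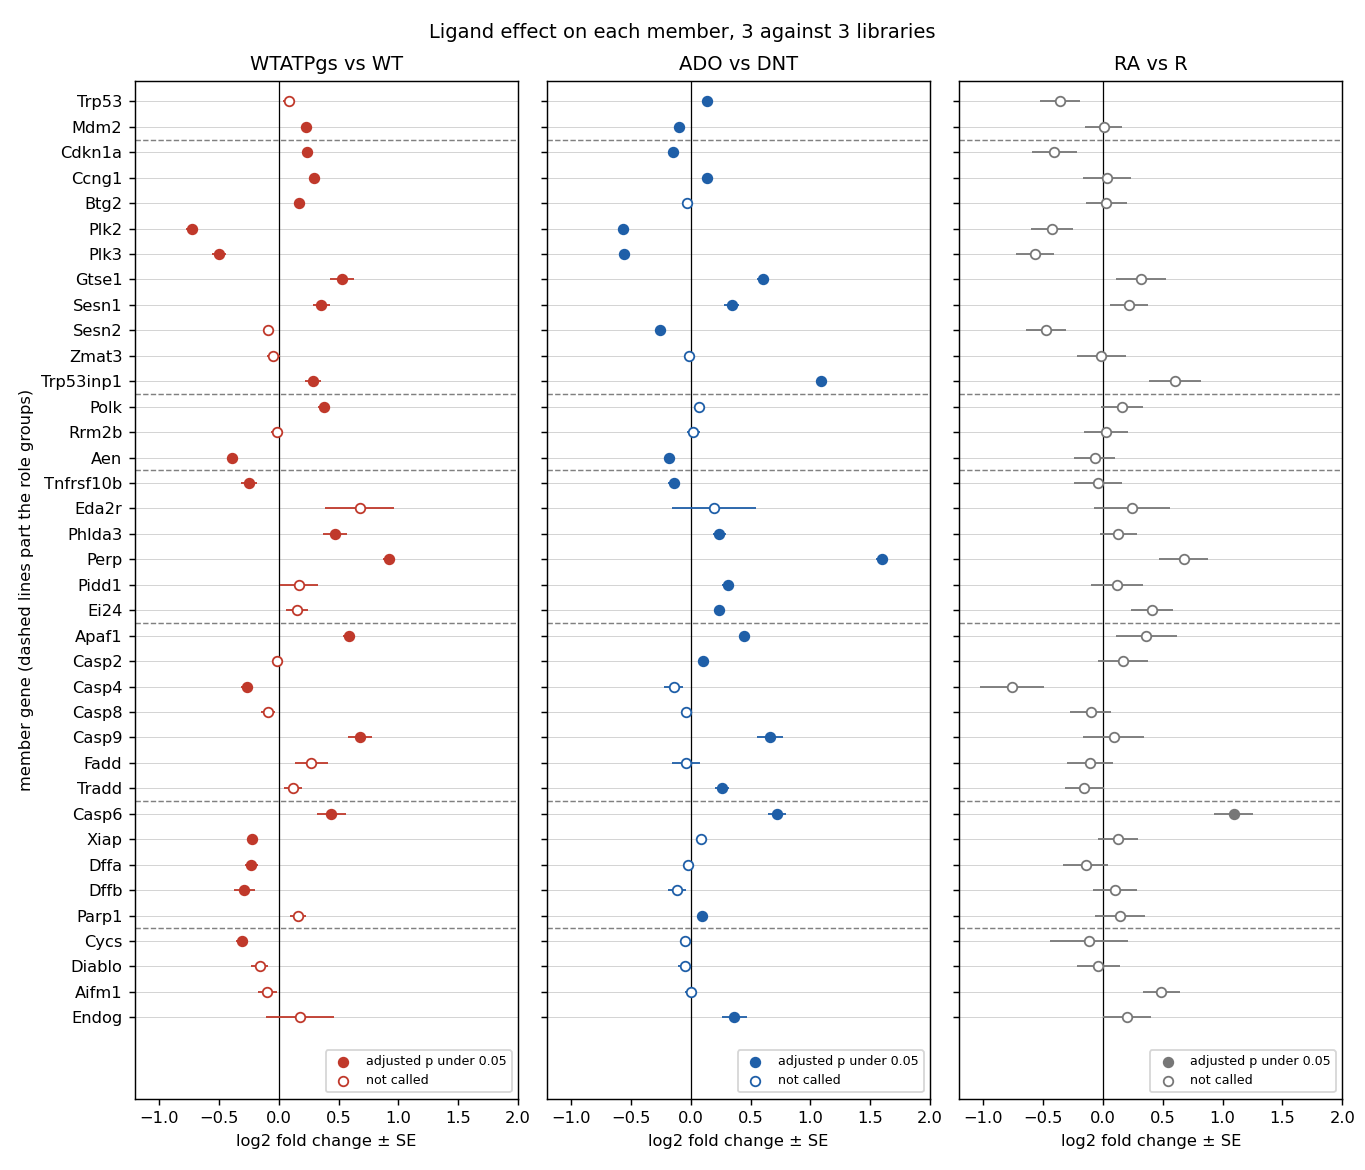
Log2 fold change ± SE of each gene for ATPgs, adenosine and adenosine in the presence of the inhibitor (3 against 3 libraries), filled where the adjusted p was under 0.05 and ordered by role. Filled points lie on both sides of 0 for ATPgs and for adenosine, and Casp6 is the only filled point in the presence of the inhibitor.

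Trp53 (chr11:69580359-69591873, + strand, GRCm38) itself was called with adenosine only, and its change was small. Trp53 had 147, 148 and 154 CPM in WT and 156, 153 and 168 CPM in WTATPgs. In the adenosine set it had 191, 191 and 188 CPM in DNT and 212, 209.8 and 203 CPM in ADO. The ATPgs libraries overlapped their controls and all 3 ADO libraries lay above DNT. Its log2 fold change was 0.09 ± 0.05 (SE) with ATPgs, not called (adjusted p = 0.18), and 0.13 ± 0.03 with adenosine (adjusted p = 2.6e-05). Under library size scaling the ATPgs value was also called (adjusted p = 0.042, over a range of 0.042 to 0.60 across the alternatives).

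Mdm2 (chr10:117688875-117710758, - strand), the ubiquitin ligase that marks p53 for destruction, went up with ATPgs and slightly down with adenosine. Mdm2 had 251, 244 and 242 CPM in WT and 291, 292 and 280.3 CPM in WTATPgs, with no overlap. It had 212, 207 and 208 CPM in DNT and 201, 197 and 189 CPM in ADO, again with no overlap and in the other direction. The log2 fold changes were 0.23 ± 0.04 (adjusted p = 1.3e-03) and -0.10 ± 0.03 (adjusted p = 2.1e-03). The fall with adenosine is small enough to lose its call when counts are scaled by library size alone.

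Cdkn1a (chr17:29090976-29100727, + strand), which halts the cell cycle and carries the paired half-sites printed above, showed the same opposition. Cdkn1a had 583, 565 and 562 CPM in WT and 676, 679 and 657 CPM in WTATPgs. It had 598, 603 and 607 CPM in DNT and 546, 544 and 538 CPM in ADO. In both sets the groups were apart, upward with ATPgs (log2 fold change 0.23 ± 0.03, adjusted p = 7.5e-04) and downward with adenosine (-0.15 ± 0.02, adjusted p = 2.3e-09). A transcript on the opposite strand shares 7.68% of the Cdkn1a exon length, and the strand setting of the counting is not given in the sources used here.

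**Figure D3:**
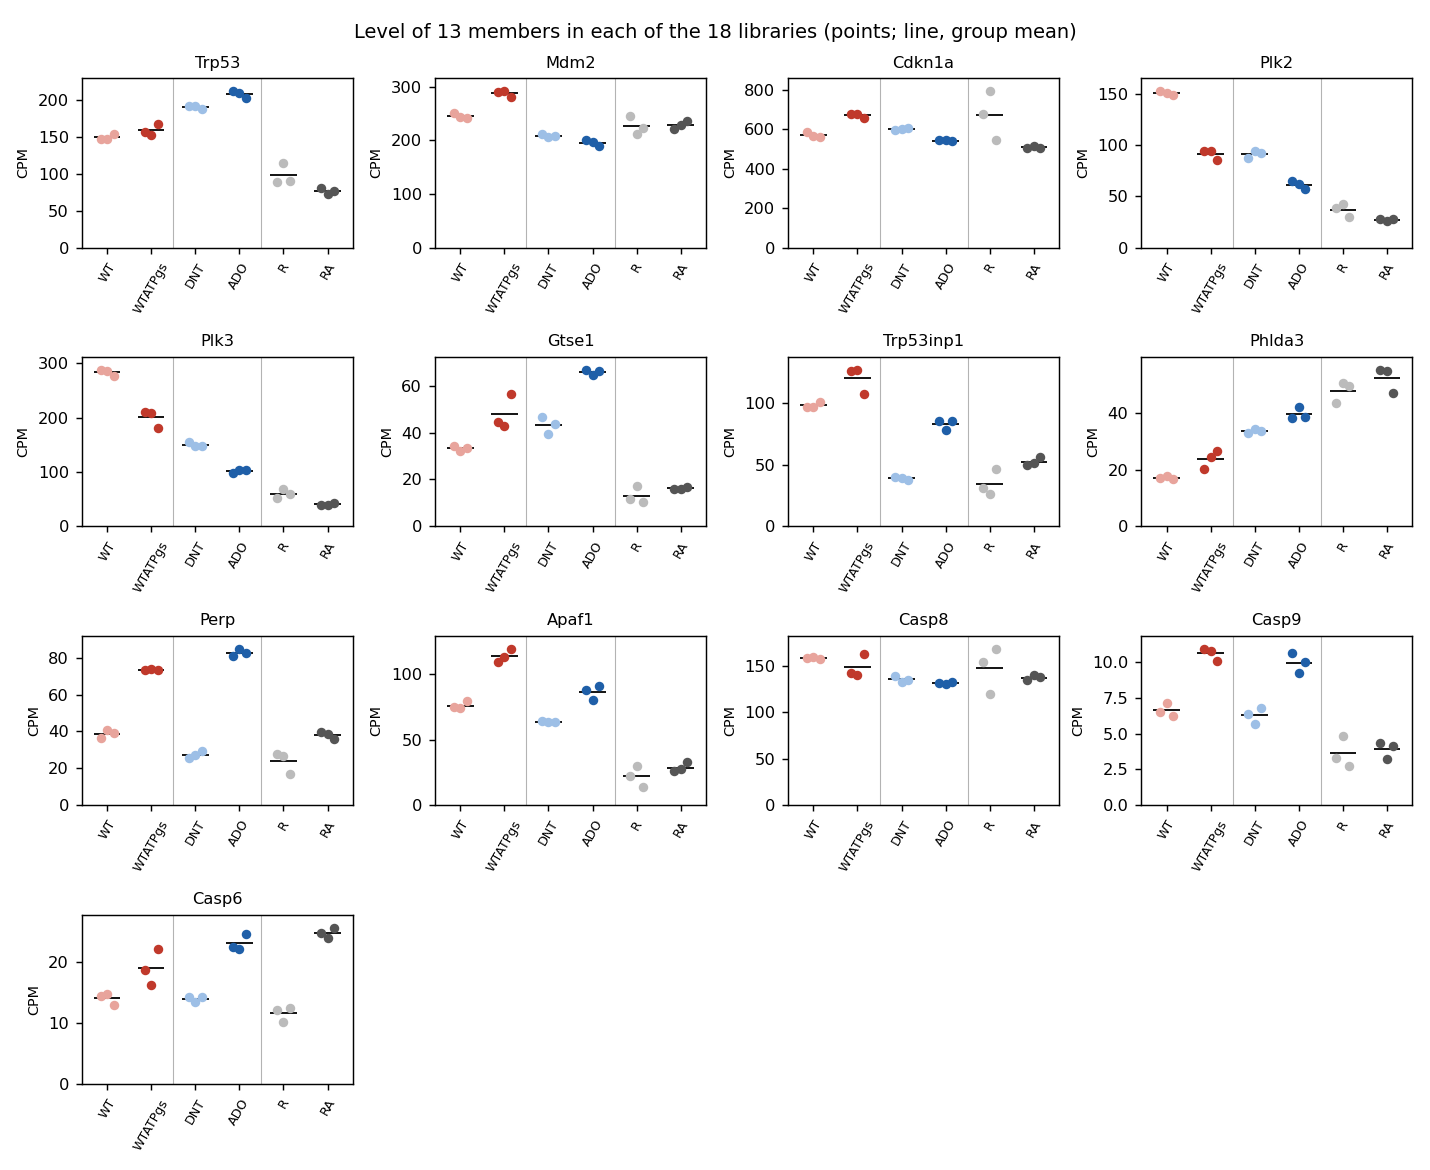
CPM of 13 of the genes in each of the 18 libraries (points) with the group mean (line), from a CPM axis that starts at 0; vertical lines part the sets, each scaled on its own. Plk2 and Plk3 lie lower, and Perp, Apaf1 and Casp9 higher, in every WTATPgs library than in WT and in every ADO library than in DNT, and Mdm2 and Cdkn1a move in opposite directions in the first and second set.

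Among the 10 targets that act in cell cycle arrest and growth control, 6 rose and 2 fell with ATPgs, and 4 rose and 4 fell with adenosine, beside the shares of all genes given above (17.7% rises and 19.4% falls with ATPgs, 25.5% and 24.6% with adenosine). The falls were led by the polo-like kinases Plk2 and Plk3, stress-responsive kinases of the cell cycle. Plk2 (chr13:110395046-110400844, + strand) had 153, 151 and 149.8 CPM in WT and 94.2, 94.8 and 86.1 CPM in WTATPgs. In the adenosine set Plk2 had 87.4, 94.1 and 92.6 CPM in DNT and 65.0, 62.1 and 57.5 CPM in ADO. Every library with ligand lay below every control, at log2 fold changes of -0.72 ± 0.05 (adjusted p = 1.3e-05) and -0.57 ± 0.04 (adjusted p = 7.4e-17). Plk3 (chr4:117128655-117133963, - strand) had 288, 285 and 277 CPM in WT and 211, 209 and 182 CPM in WTATPgs. It had 156, 148 and 147 CPM in DNT and 98.3, 104 and 104 CPM in ADO. Plk3 thus fell by similar amounts, -0.50 ± 0.06 (adjusted p = 3.3e-04) and -0.56 ± 0.03 (adjusted p = 1.2e-20) on the log2 scale.

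The largest rise with adenosine in the arrest group was in Trp53inp1 (chr4:11156431-11174379, + strand), a stress protein that acts with p53 and in autophagy. It had 39.0 CPM in DNT (SD 1.14, n = 3), with libraries at 40.2, 39.1 and 37.9, and 85.7, 78.6 and 85.2 CPM in ADO. In the ATPgs set it had 97.3, 96.7 and 101 CPM in WT and 126, 127 and 107 CPM in WTATPgs, where replicate 3 was the lowest. The adenosine effect was 2.13-fold (log2 1.09 ± 0.04, adjusted p = 1.5e-26) and the ATPgs effect 1.22-fold (log2 0.29 ± 0.07, adjusted p = 9.7e-03).

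Gtse1 (chr15:85859745-85876573, + strand), a protein of S and G2 phase that restrains p53, rose with either ligand. Gtse1 had 34.3, 32.0 and 33.3 CPM in WT and 44.3, 43.0 and 56.2 CPM in WTATPgs. It had 46.8, 39.2 and 43.6 CPM in DNT and 66.7, 64.5 and 66.1 CPM in ADO. The groups were apart in both sets, at log2 fold changes of 0.53 ± 0.10 (adjusted p = 5.1e-03) and 0.60 ± 0.05 (adjusted p = 2.0e-15). The summed level of 20 proliferation genes moved alongside, from 1844 to 1891 CPM in WT to 1930 to 2217 CPM in WTATPgs, with the highest value in replicate 3, and from 2154 to 2162 CPM in DNT to 2707 to 2735 CPM in ADO. Of these 20 genes 5 rose with ATPgs and 19 with adenosine, against 17.7% and 25.5% of all genes, none fell, and their part in the Gtse1 result was not tested.

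Ccng1, a cyclin that feeds back on p53, rose by 0.30 ± 0.05 with ATPgs (adjusted p = 1.7e-03) and 0.13 ± 0.02 with adenosine (adjusted p = 2.7e-05) on the log2 scale. Sesn1, a sestrin that curbs growth signalling through mTORC1, rose by 0.36 ± 0.07 (adjusted p = 4.9e-03) and 0.34 ± 0.06 (adjusted p = 6.7e-06). Its relative Sesn2 fell by 0.25 on the log2 scale with adenosine (SE 0.03, adjusted p = 1.1e-08), from 111 to 92.8 CPM on average, and stood at -0.09 ± 0.04 with ATPgs (adjusted p = 0.13). Btg2, an antiproliferative protein, rose with ATPgs by 0.17 ± 0.03 (adjusted p = 5.2e-03) and was at -0.03 ± 0.03 with adenosine (adjusted p = 0.42). Zmat3, an RNA-binding p53 target, was within 0.05 of 0 in either comparison and was not called.

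Of the 3 targets in DNA repair and nucleotide supply, the translesion polymerase gene Polk rose with ATPgs, from 63.6 to 82.5 CPM on average (log2 0.38 ± 0.05, adjusted p = 5.4e-04), and was at 0.07 ± 0.04 with adenosine (adjusted p = 0.16). Aen, an exonuclease that enhances apoptosis, fell with either ligand, at log2 fold changes of -0.39 ± 0.04 (adjusted p = 2.7e-04) and -0.18 ± 0.03 (adjusted p = 4.6e-08). Rrm2b, the p53-induced subunit of ribonucleotide reductase, was within 0.03 of 0 and not called.

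The group of death receptors, membrane proteins and adaptors held the largest change of all 37 genes. Perp (chr10:18845020-18857073, + strand), a membrane protein of p53-dependent death and of cell adhesion, had 25.4, 27.2 and 29.4 CPM in DNT and 80.8, 84.9 and 82.6 CPM in ADO. It had 36.6, 40.6 and 39.0 CPM in WT and 73.1, 74.1 and 73.1 CPM in WTATPgs. The libraries with and without ligand were far apart in both sets. Perp rose 3.03-fold with adenosine (log2 1.60 ± 0.05, adjusted p = 5.0e-32) and 1.90-fold with ATPgs (log2 0.92 ± 0.05, adjusted p = 6.0e-06).

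Phlda3 (chr1:135766119-135769136, + strand), a p53 target that inhibits the kinase Akt, rose with either ligand. Phlda3 had 17.1, 17.6 and 16.6 CPM in WT and 20.2, 24.5 and 26.5 CPM in WTATPgs. It had 33.0, 34.5 and 33.6 CPM in DNT and 38.3, 42.1 and 38.7 CPM in ADO. Neither set overlapped, at log2 fold changes of 0.47 ± 0.10 (adjusted p = 6.7e-03) and 0.24 ± 0.05 (adjusted p = 1.8e-04). Tnfrsf10b, the TRAIL receptor, fell by 0.25 (SE 0.06, adjusted p = 0.016) and by 0.14 (SE 0.05, adjusted p = 0.019) on the log2 scale, and each of these calls was lost in 5 of 14 alternative settings. Pidd1, which assembles the caspase 2 platform, rose with adenosine from 35.3 to 43.8 CPM (log2 0.31 ± 0.05, adjusted p = 1.0e-06). Ei24, a membrane protein of the endoplasmic reticulum, rose with adenosine by 0.23 ± 0.04 (adjusted p = 1.3e-06), and a noncoding gene on the opposite strand shares 6.66% of its exon length. With ATPgs Pidd1 was at 0.17 ± 0.16 and Ei24 at 0.15 ± 0.09, neither called. Eda2r, an ectodysplasin receptor, averaged between 0.76 and 1.90 CPM by group and was called in no comparison by the main test. It was called as a rise with ATPgs only when WTATPgs replicate 3 was left out.

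Among the 7 initiator or inflammatory caspases and their platform proteins, the genes of the mitochondrial route moved most. Apaf1 (chr10:90989311-91082770, - strand), the scaffold of that route, had 74.7, 74.0 and 79.4 CPM in WT and 109.5, 113 and 119 CPM in WTATPgs. Apaf1 had 64.1, 63.3 and 63.8 CPM in DNT and 88.2, 80.1 and 91.2 CPM in ADO. All libraries with ligand lay above their controls, at log2 fold changes of 0.58 ± 0.05 (adjusted p = 5.6e-05) and 0.44 ± 0.04 (adjusted p = 4.0e-13). Casp9 (chr4:141793612-141815976, + strand), the caspase that Apaf1 activates, rose as well. It had 6.51, 7.18 and 6.24 CPM in WT and 10.96, 10.8 and 10.1 CPM in WTATPgs, then 6.40, 5.66 and 6.83 CPM in DNT and 10.6, 9.26 and 10 CPM in ADO. The Casp9 fold was 1.60 with ATPgs (log2 0.68 ± 0.10, adjusted p = 1.2e-03) and 1.58 with adenosine (log2 0.66 ± 0.11, adjusted p = 1.3e-06).

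Of the death receptor route, Casp8 and Fadd were called with neither ligand. Casp8 (chr1:58795374-58847503, + strand), the initiator, had 158, 159.6 and 157 CPM in WT and 143, 140.3 and 163 CPM in WTATPgs, where replicate 3 lay above all controls and the other libraries below. It had 139, 133 and 134 CPM in DNT and 131, 130.4 and 132 CPM in ADO. Its log2 fold changes were -0.09 ± 0.06 (adjusted p = 0.26) and -0.04 ± 0.03 (adjusted p = 0.23), with 95% intervals of -0.22 to 0.04 and -0.10 to 0.02. Without WTATPgs replicate 3 Casp8 was called as a fall with ATPgs. Fadd, its adaptor, averaged 4.98 to 7.17 CPM across the groups of both sets and was not called, while Tradd, the adaptor of the TNF receptor, rose with adenosine by 0.26 ± 0.06 (adjusted p = 1.5e-04). Casp4, the inflammatory caspase that senses lipopolysaccharide, fell with ATPgs from 66.6 to 55.4 CPM (log2 -0.27 ± 0.05, adjusted p = 4.1e-03) and was at -0.14 ± 0.08 with adenosine (adjusted p = 0.12). Of the 12 myeloid markers, 6 reached 1 CPM in WT and 10 in WTATPgs and none was at 0 counts there; their summed level was high in WTATPgs replicates 1 and 2 only, as given above. Casp4 was also called with each of the WTATPgs libraries left out in turn, but each of those fits kept replicate 1 or 2. The part of the marker levels in the Casp4 fall was not tested. The call was lost in the fit of all 18 libraries (adjusted p = 0.36). Casp2, the caspase of the Pidd1 platform, rose by 0.10 ± 0.04 with adenosine (adjusted p = 0.044), a call that 8 of 14 alternatives did not give.

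Downstream, Casp6 (chr3:129901425-129914103, + strand), an effector caspase, was the only gene of the 37 called as a rise in all 3 comparisons. Casp6 had 14.4, 14.8 and 12.96 CPM in WT and 18.8, 16.3 and 22.2 CPM in WTATPgs. It had 14.3, 13.4 and 14.4 CPM in DNT and 22.4, 22.2 and 24.6 CPM in ADO. No group overlapped its control, and the log2 fold changes were 0.44 ± 0.12 with ATPgs (adjusted p = 0.019) and 0.72 ± 0.07 with adenosine (adjusted p = 1.0e-11). The ATPgs call was lost when any 1 of the WT libraries was left out (adjusted p between 3.8e-04 and 0.090 across the alternatives). Of Xiap, Dffa, Dffb and Parp1, which inhibit caspases or act downstream of them, 3 fell with ATPgs, against 19.4% of all genes. Xiap, a direct inhibitor of caspases, fell from 109.8 to 94.0 CPM (log2 -0.22 ± 0.04, adjusted p = 4.2e-03), and Dffa and Dffb, the inhibitor and nuclease of the complex that fragments DNA, fell by 0.23 (SE 0.06, adjusted p = 0.012) and 0.29 (SE 0.09, adjusted p = 0.029). The Dffb call was lost in 7 of 14 alternatives and the Dffa call in 3. With adenosine Xiap, Dffa and Dffb were not called, and Parp1 rose by 0.10 ± 0.03 (adjusted p = 3.8e-03). Xiap narrowly missed a call there, at 0.08 ± 0.04 (adjusted p = 0.051). Some alternatives called it as a rise (adjusted p between 2.4e-03 and 0.64 across them).

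Of the 4 mitochondrial factors, Cycs fell with ATPgs from 225 to 182 CPM (log2 -0.31 ± 0.05, adjusted p = 1.5e-03) and was at -0.05 ± 0.03 with adenosine (adjusted p = 0.11). Cytochrome c has processed pseudogenes, so its counts carry some uncertainty. Endog, a mitochondrial endonuclease, rose with adenosine from 8.42 to 10.8 CPM (log2 0.36 ± 0.10, adjusted p = 2.8e-03), but 35.7% of its exon length is shared with Spout1 on the opposite strand and reads of the 2 genes may not be separable. Diablo, which releases caspases from Xiap and shares 21.5% of its exon length with B3gnt4 on the opposite strand and 19.3% with the protein-coding gene Gm49027 on the same strand, and Aifm1, a flavoprotein that can move to the nucleus, were called with neither ligand. Without WTATPgs replicate 3 both were called as falls with ATPgs.

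Whether the 2 ligands differed was tested as the ATPgs effect minus the adenosine effect, over the 12 libraries of the first and second sets. The test called 11 of 37 genes (29.7%), 5 with a higher and 6 with a lower ATPgs effect, against 17.3% of 15788 genes, 8.13% higher and 9.12% lower. Cdkn1a led the genes with the higher ATPgs effect (difference in log2 fold change 0.39 ± 0.04, adjusted p = 2.4e-06), followed by Mdm2 (0.33 ± 0.04, adjusted p = 1.0e-04), Polk (0.32 ± 0.06, adjusted p = 3.0e-03), Btg2 (0.20 ± 0.04, adjusted p = 4.6e-03) and Sesn2 (0.17 ± 0.05, adjusted p = 0.042). Lower ATPgs effects were found for Trp53inp1 (-0.80 ± 0.08, adjusted p = 3.5e-06) and Perp (-0.67 ± 0.08, adjusted p = 1.8e-05), which rose with either ligand but more with adenosine. Xiap (-0.30 ± 0.06, adjusted p = 2.2e-03), Cycs (-0.26 ± 0.06, adjusted p = 0.010), Aen (-0.20 ± 0.06, adjusted p = 0.022) and Dffa (-0.20 ± 0.07, adjusted p = 0.047) were also lower. Of the shared movers, Plk2 (-0.15 ± 0.07, 95% interval -0.29 to -0.01), Plk3 (0.06 ± 0.07, -0.07 to 0.20), Apaf1 (0.15 ± 0.07, -0.01 to 0.30) and Casp9 (0.02 ± 0.15, -0.29 to 0.33) gave no called difference. The ligands were tested in separate sets, so ligand and set cannot be told apart in these differences. Without WTATPgs replicate 3 the test called 19 of the genes, 7 higher and 12 lower, when 33.0% of all genes were called. The Perp difference was called in all 20 alternatives, those of Cdkn1a, Mdm2 and Trp53inp1 in all but the fit of 18 libraries together, and those of Aen, Sesn2 and Dffa in 12, 8 and 6.

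**Figure D4:**
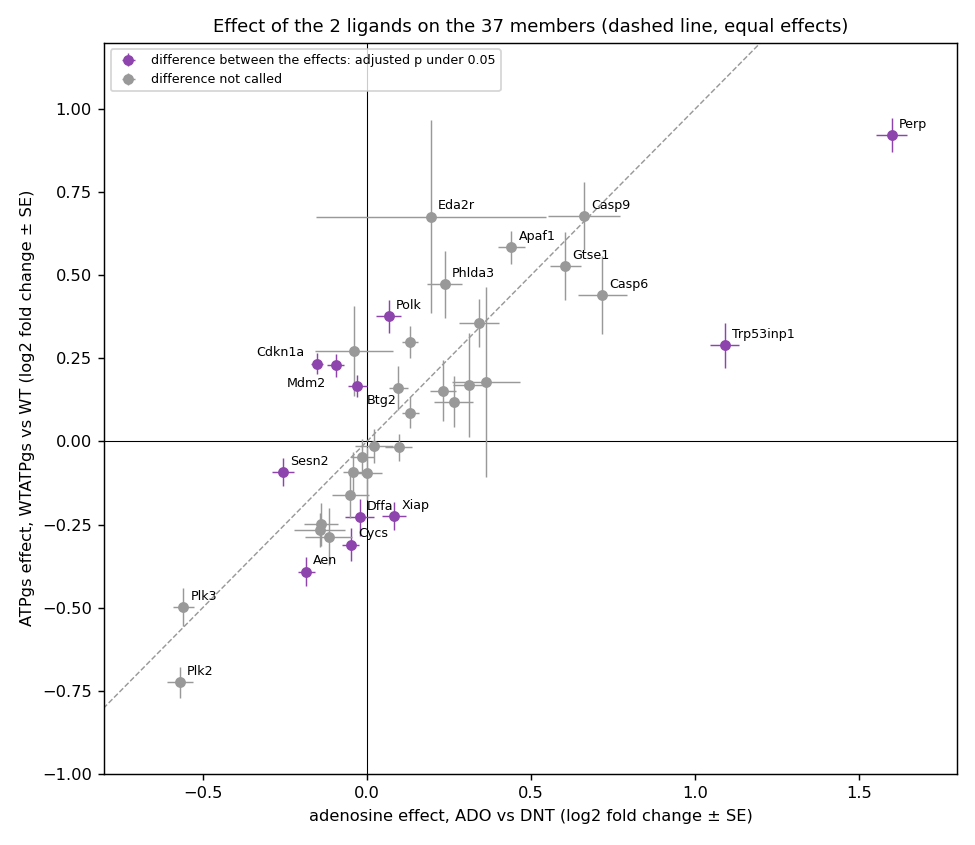
Log2 fold change ± SE with ATPgs (vertical axis) against adenosine (horizontal axis) for the 37 genes, with the line of equal effects dashed and genes whose effects differed by the test coloured. Perp and Trp53inp1 lie below the line at the right, Cdkn1a and Mdm2 lie at a positive ATPgs and a negative adenosine value, and Plk2 and Plk3 lie low for both.

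In the presence of the A2aR inhibitor, adenosine raised Casp6 and no other gene of the 37 was called (2.70%), against 1.14% of 12873 genes, 0.287% as rises and 0.855% as falls. At an unadjusted p under 0.05 there were 9 genes, but the share of all genes at that threshold was not counted. DESeq2 called 4 of the 37 genes, when it called 4.14% of all genes. Casp6 had 12.2, 10.3 and 12.5 CPM in R and 24.8, 24.0 and 25.7 CPM in RA, a 2.13-fold rise (log2 1.09 ± 0.16, adjusted p = 0.011, 95% interval 0.73 to 1.46). That call was lost when R replicate 1 or any 1 of the RA libraries was left out (adjusted p between 1.1e-07 and 0.12 across the alternatives). The R libraries varied far more than those of the other sets, with a common biological coefficient of variation of 19.6% in the R and RA fit against 10.6% with ATPgs and 2.74% with adenosine. A missing call in this set therefore says little, and the intervals are given instead.

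For 12 of the 37 genes the RA libraries lay wholly to one side of R, 11 of them without a call, and the same held for 20.8% of all genes tested. Perp had 27.7, 26.7 and 16.8 CPM in R and 39.9, 38.4 and 35.7 CPM in RA (log2 0.68 ± 0.21, 95% interval 0.22 to 1.14, adjusted p = 0.18). Trp53inp1 had 30.9, 26.3 and 46.6 CPM in R and 49.5, 51.1 and 56.7 CPM in RA (log2 0.60 ± 0.22, interval 0.12 to 1.09, adjusted p = 0.27). In both genes R replicate 3 was the odd one, lowest for Perp and highest for Trp53inp1. Plk3 had 51.4, 68.9 and 59.97 CPM in R and 40.0, 39.6 and 42.2 CPM in RA (log2 -0.57 ± 0.16, interval -0.93 to -0.21, adjusted p = 0.15). Plk2 had 38.7, 42.2 and 29.5 CPM in R and 28.1, 26.2 and 27.9 CPM in RA (log2 -0.43 ± 0.17, interval -0.82 to -0.04, adjusted p = 0.35). The RA values of both kinases were thus below R, with R replicate 3 the nearest for Plk2.

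Trp53 had 89.3, 115 and 90.2 CPM in R and 80.7, 72.2 and 76.6 CPM in RA (log2 -0.36 ± 0.16, interval -0.73 to 0.01, adjusted p = 0.42). Cdkn1a had 679, 794 and 543 CPM in R and 502, 515 and 504 CPM in RA (log2 -0.41 ± 0.19, interval -0.83 to 0.02, adjusted p = 0.43). The groups were apart for both genes, but their intervals include 0. The other genes whose RA libraries lay apart were Sesn1, Ei24 and Aifm1, higher, and Sesn2 and Casp4, lower, with Casp4 at -0.76 ± 0.27 (interval -1.36 to -0.16, adjusted p = 0.26). Mdm2 (212 to 246 CPM in R, 220.4 to 236 CPM in RA), Gtse1 (10.46 to 17.0 and 15.9 to 16.8 CPM), Phlda3 (43.4 to 50.4 and 47.0 to 55.2 CPM), Apaf1 (14.1 to 30.2 and 25.8 to 32.7 CPM), Casp8 (119 to 168 and 135 to 139.8 CPM) and Casp9 (2.78 to 4.87 and 3.23 to 4.36 CPM) overlapped. Without R replicate 3, the library with the highest share of mitochondrially encoded RNA, 10 of the genes were called: Trp53inp1, Perp, Casp6, Cycs and Aifm1 as rises and Trp53, Cdkn1a, Plk2, Plk3 and Sesn2 as falls, when 13% of all genes were called.

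Whether adenosine acted differently with the inhibitor than without it was tested as the RA against R effect minus the ADO against DNT effect. The test called 2 of 37 genes (5.41%), against 4.05% of 14965 genes, 0.909% with a higher and 3.14% with a lower effect under the inhibitor. At an unadjusted p under 0.05 there were 6 of the 37, again without a count over all genes at that threshold. The adenosine effect on Perp was smaller with the inhibitor (difference in log2 fold change -0.93 ± 0.19, 95% interval -1.34 to -0.52, adjusted p = 0.016). Aifm1 had the higher effect with the inhibitor (0.48 ± 0.12, interval 0.21 to 0.74, adjusted p = 0.046), at 27.2 CPM in R (SD 2.69, n = 3) and 38.2 CPM in RA (SD 0.37, n = 3), beside 48.7 CPM in DNT (SD 2.19, n = 3) and 48.6 CPM in ADO (SD 0.76, n = 3). The Perp call was lost in 6 of 20 alternatives (adjusted p between 6.8e-06 and 0.18), among them leaving out DNT replicate 1, DNT replicate 2, ADO replicate 2 or RA replicate 3, and the Aifm1 call in 12 of 20 (1.9e-04 to 0.25). Without R replicate 3 the test called 8 of the 37, when 19.8% of all genes were called. Plk3 (-0.03 ± 0.15, interval -0.36 to 0.31), Trp53inp1 (-0.52 ± 0.26, interval -1.08 to 0.05), Trp53 (-0.51 ± 0.14, interval -0.82 to -0.19, adjusted p = 0.072) and Casp6 (0.36 ± 0.15, interval 0.02 to 0.69, adjusted p = 0.25) were not called. The fit pooled the spread of both sets, with a common biological coefficient of variation of 14.2%, against 19.6% for R and RA and 2.74% for DNT and ADO. The SE of the difference for Perp, Aifm1 and Trp53 was below that of RA against R alone (0.21, 0.15 and 0.16). These intervals and adjusted p-values may thus understate the variation among the R libraries. The inhibitor and the set cannot be told apart here either.

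Other genes of the pathways, from wider lists, also went in both directions. Of 23 further p53 targets that could be tested, 6 rose and 7 fell with ATPgs (56.5% called, against 37.1% of all genes), among them Pmaip1, the BH3 protein Noxa, at a log2 fold change of 0.76 ± 0.05 (adjusted p = 1.3e-05), and Tigar, a regulator of sugar metabolism, at -0.37 ± 0.05 (adjusted p = 4.4e-04). With adenosine 9 of the 23 rose and 5 fell (60.9%, against 50.2%), among them the 14-3-3 protein gene Sfn at 0.99 ± 0.05 (adjusted p = 2.2e-22) and the cytokine gene Lif at -0.42 ± 0.02 (adjusted p = 8.5e-25). None of the 23 was called under the inhibitor. Of the regulators of p53 and DNA damage kinases, 4 rose and 6 fell of 17 with ATPgs (58.8%), and 3 rose and 4 fell of 16 with adenosine (43.8%), beside the same shares of all genes. Cdkn2a, whose Arf product blocks Mdm2, fell with either ligand, at log2 fold changes of -0.52 ± 0.05 (adjusted p = 1.8e-04) and -0.67 ± 0.06 (adjusted p = 1.4e-14).

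Of the other caspase and death receptor genes, 5 rose and 5 fell of 21 with ATPgs (47.6%, against 37.1% of all genes), and 10 rose and 7 fell of 20 with adenosine (85%, against 50.2%). Cflar, the decoy that blocks caspase 8, fell with either ligand, at -0.76 ± 0.05 (adjusted p = 9.9e-06) and -0.65 ± 0.02 (adjusted p = 4.9e-29), while Casp8 itself was not called. Birc2, an inhibitor of apoptosis that tags signalling proteins with ubiquitin, rose with ATPgs by 0.97 ± 0.06 (adjusted p = 9.6e-06), and Bid, the link from caspase 8 to mitochondria, fell, at -0.64 ± 0.06 (adjusted p = 9.2e-05). In the test of the adenosine effect with against without the inhibitor, 4 of the 23 further p53 targets were called, all lower under the inhibitor, where 4.05% of all genes were called and most of those were lower too (3.14% against 0.909% higher). They were Sfn (-1.04 ± 0.18, adjusted p = 6.4e-03), Pml (-0.79 ± 0.17, adjusted p = 0.021), Bbc3 (-0.73 ± 0.18, adjusted p = 0.043) and Ddb2 (-0.95 ± 0.25, adjusted p = 0.048).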

How the data were processed

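Counts per Ensembl gene were deposited as 3 tables of whole numbers, 1 per set of 6 libraries. Per the labels' protocols, RNA was extracted with Trizol and libraries followed a standard Illumina protocol. The submitters' processing notes name HISAT2 2.1.0 and GRCm38. How the authors counted reads (tool, annotation release, strand setting) is not given in the sources used here. Symbols, coordinates and exon lengths were taken from GENCODE M21.

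Groups followed the sample labels. The main test was the robust quasi-likelihood F test of edgeR 4.0.16 (R 4.3.3), two-sided, after TMM scaling and filterByExpr, with p adjusted by Benjamini-Hochberg over all genes tested and a threshold of 0.05, in a fit of the 6 libraries compared or of 12 for a difference between effects. SE is the log2 fold change over the square root of F. CPM used the TMM factors of each set, and CPM per kb those over 18 libraries. Library values were printed for genes called with an absolute log2 fold change of at least 0.4 and 5 CPM, and for Trp53, Cdkn1a, Mdm2, Apaf1, Casp8 and Casp9. Of each wider list, genes were named from the 4 with the smallest p. The genes, roles, lists and rules were chosen with earlier results of these data known.

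Alternatives were DESeq2 1.42.0, limma-voom (limma 3.58.1), RLE factors, library size only, no filter, at least 1 CPM in 3 libraries, a block for replicate number, a fit of all 18 libraries, and leaving out each library in turn. The scripts were tested on simulated data. Figures were drawn with matplotlib 3.10.9 in Python 3.11.15. No replicates were merged, since every pair within a group differed by more than sampling noise.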

Additional observations from a re-analysis of the deposited data

Results flagged for a closer look

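The adenosine effect on Perp differed between cells with and without the A2aR inhibitor, by -0.93 ± 0.19 (SE) on the log2 scale (edgeR's quasi-likelihood test, adjusted p = 0.016). All 3 RA libraries lay above R and all 3 ADO libraries above DNT, so the difference is in the size of the rise. The adenosine effect on Aifm1 differed the other way, by 0.48 ± 0.12 (adjusted p = 0.046), with RA above R in all 3 libraries and ADO overlapping DNT. Both p-values come from a fit that pooled the spread of the sets with and without the inhibitor, so they may understate the variation among the R libraries. The inhibitor and the set cannot be told apart in either value.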

How the results depend on the processing

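Leaving out 1 library at a time gave 19 to 26 called genes with ATPgs, 22 to 24 with adenosine, 0 to 10 for adenosine under the inhibitor, 0 to 8 for the difference made by the inhibitor and 8 to 19 for the difference between ligands, while the shares of all genes called ran from 24.9% to 53.8%, 45% to 46.5%, 0.274% to 13%, 1.83% to 19.8% and 11.9% to 33.0%. A single fit of all 18 libraries gave 12, 8, 11, 3 and 1 in the same order (20.5%, 14.4%, 11.1%, 6.28% and 1.88% of all genes), where the spread of the R libraries entered every comparison by construction. DESeq2 gave 4 genes for adenosine under the inhibitor and 4 for the inhibitor's difference (4.14% and 10.3% of all genes), and testing without a filter on low counts gave 3 and 1 (2.04% and 2.25%). Scaling by library size alone left 0 for the inhibitor's difference (1.6% of all genes). No pairing of the libraries by replicate number was seen. No same-numbered correlation of deviations passed 0.052, and not every library correlated best with its own number. Deviations from means of 3 libraries cannot exclude a pairing, and the labels do not state one. With a replicate block the called genes numbered 22, 24, 1, 0 and 8 (31.7%, 51%, 1.04%, 1.07% and 14% of all genes). Cycs changed direction when 1 library was left out: its log2 fold change for RA against R ran from -0.40 to 0.43, and its inhibitor difference from -0.29 to 0.53, both positive without R replicate 3. No gene called in the main test changed sign under any alternative run. The causes of these shifts were not tested. Eda2r had the fewest counts of the 37 genes, 11 to 52 per library, and Fadd, Casp9 and Endog the next fewest when summed over the libraries.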
